A study of Rattus norvegicus with 6 samples.

Results

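The arms of 9 miRNAs known from nervous tissue were followed in fibroblasts of the rat sciatic nerve and in the vesicles that these cells release. They were chosen by name: 14 arms of the neuronal miR-9a, miR-128, miR-132, miR-138, miR-212 and miR-218a, and 6 arms of the glial miR-204, miR-219a and miR-338. These are 20 of the 1071 rows of the count table, of which 552 are known rat miRNAs. miR-124 belongs to the same neuronal set and was not analysed here. Small RNA was sequenced from 3 samples of extracellular vesicles (EV, called exosomal by the submitters) and, as the controls of the design, from 3 samples of intracellular RNA (Intracellular). All 6 samples came from wild-type, untreated nerve-derived fibroblasts in 1 batch, and the age and number of animals are not given. Since the labels do not tie the replicates to separate cultures or animals, a p-value here speaks of the spread among these 6 samples, which may be technical.

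A miRNA precursor is cut into a 5p and a 3p arm, and usually one of them, the guide, is kept to silence mRNAs that pair with its seed, bases 2 to 8 of the mature sequence. miR-9, miR-124, miR-128, miR-132 and miR-218 are abundant in neurons or neural progenitors, whereas miR-219 and miR-338 promote the maturation of myelinating oligodendrocytes. A peripheral nerve holds Schwann cells and axons beside its fibroblasts, so the levels of these miRNAs in a fibroblast culture are of interest. No library of those cells was available, so the levels do not measure how pure the culture was.

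The sequences below are those on which the results turn, 5′ to 3′, with the seed in capitals. The first 3 are the abundant arms, the next 2 share a seed, the following 2 are the arms of one precursor, and the last 2 are a low glial and a trace neuronal arm.
miR-9a-5p: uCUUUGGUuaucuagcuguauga
miR-218a-5p: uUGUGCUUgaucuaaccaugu
miR-128-3p: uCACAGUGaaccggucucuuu
miR-132-3p: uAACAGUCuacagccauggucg
miR-212-3p: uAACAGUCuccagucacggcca
miR-338-5p: aACAAUAUccuggugcugagug
miR-338-3p: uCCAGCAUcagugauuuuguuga
miR-204-5p: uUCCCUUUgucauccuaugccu
miR-138-5p: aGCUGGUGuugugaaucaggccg
All 20 arms were found in RefSeq's table of mature miRNAs (build GRCr8), and all 20 sequences were identical to those deposited with the counts. They carry 18 different seeds. miR-132-3p and miR-212-3p, whose genes are neighbours in RefSeq's order of miRNA genes, share the seed AACAGUC, and the 5p arms of the precursors miR-128-1 and miR-128-2 share GGGGCCG. Mature miR-9a-5p comes from 3 genes, and miR-128-3p, miR-138-5p and miR-218a-5p from 2 genes each, so their counts cannot be divided between the genes. Of the 659 rows with a sequence, a known miRNA within 3 edits was found for a single arm. miR-211-5p differs from miR-204-5p by 1 edit and had 33 Intracellular counts in all, against 357 of miR-204-5p, so reads of both may have been exchanged. A predicted miRNA lay 3 edits from miR-338-3p and shared its seed. It had 3 EV counts and 0 Intracellular counts, against 6 EV counts of miR-338-3p.

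The EV libraries held 81211 to 105578 counts and the Intracellular ones 1839047 to 8859302. One count therefore stood for 9.47 to 12.3 CPM (counts per 1000000 in the library) in EV and for 0.113 to 0.544 CPM in Intracellular libraries. miRNAs typical of fibroblasts and other mesenchymal cells (16 arms of 8 miRNAs, among them miR-143, miR-21 and miR-199a) summed to 455285 to 479085 CPM in EV, against 483640 to 501043 CPM inside the cells. Intracellular replicate 1 stood apart. Its scaling factor by the trimmed mean of M-values (TMM) was 0.557, against 0.964 and 0.935 in replicates 2 and 3, and it held the lowest Intracellular CPM of 86.8% of the 234 known miRNAs with at least 10 CPM in every Intracellular library. The same held for 9 of the 9 neuronal and glial arms at that level.

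The 20 neuronal and glial arms together took 0.475% ± 0.0430 (SD, n = 3) of the counts in EV and 0.418% ± 0.158 (SD, n = 3) of those inside the cells. Nearly all of this was miR-9a-5p, miR-218a-5p and miR-128-3p, which made up 92.3% ± 2.26 of the summed level in EV and 93.0% ± 1.22 in Intracellular libraries. Neuronal arms summed to 4149 to 5047 CPM in EV, against 2334 to 5276 CPM inside the cells. Glial arms summed to 65.0 to 123.1 CPM in EV, against 47.3 to 75.9 CPM inside the cells, so both sums overlapped between the groups.

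Levels inside the cells were divided by a plain scale. An arm with at least 100 CPM in every Intracellular library was called expressed, one with at least 10 CPM in every library low, and one below 10 CPM in any library trace. By this scale 3 arms were expressed, 6 were low and 11 were trace, or 15.0%, 30.0% and 55.0% of the 20. Among all 552 known miRNAs the shares were 25.4%, 17.0% and 57.6%. All 3 expressed arms were neuronal. The low arms were the neuronal miR-132-3p, miR-132-5p, miR-9a-3p and miR-212-5p and the glial miR-204-5p and miR-338-5p. The arms nearest to the limit of 10 CPM were miR-338-5p, with a lowest library of 12.5 CPM, and miR-338-3p, with a lowest library of 8.16 CPM. The nearest below 100 CPM by its lowest library was miR-132-5p, at 59.3 CPM, and by its mean miR-132-3p, whose lowest library was at 51.1 CPM and whose highest was at 102.3 CPM. The nearest above was miR-218a-5p, with a lowest library of 602 CPM.

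**Figure D1:**
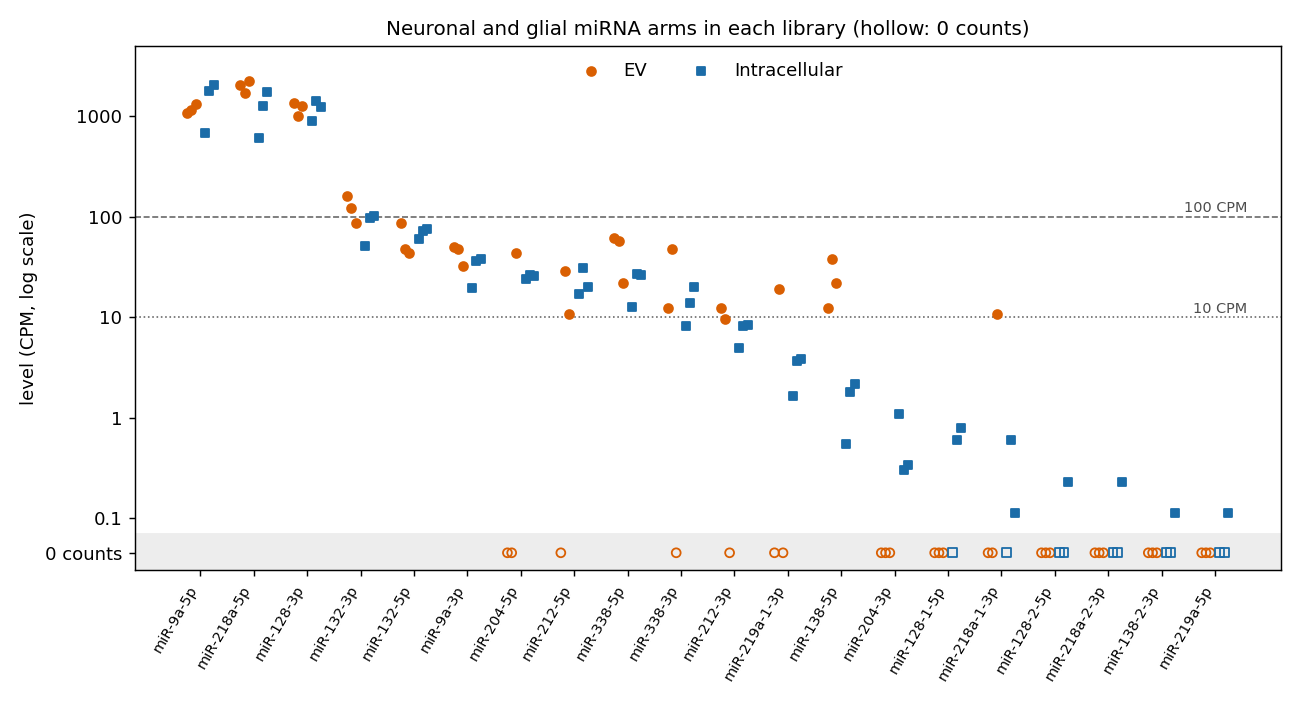
Level in CPM (log scale) of the 20 arms in each library, ordered by mean Intracellular level, with EV libraries as circles and Intracellular libraries as squares. Hollow symbols on the grey band are libraries with 0 counts, and dashed and dotted lines mark 100 and 10 CPM. The first 3 arms lie at 602 CPM or more in all 6 libraries, and 6 arms on the right have no EV counts.

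rno-miR-9a-5p, which tunes the timing of neuron formation from neural progenitors, was the most abundant of the set inside the cells. It stood at 1084, 1156 and 1321 CPM in EV replicates 1, 2 and 3 (88, 122 and 122 counts) and at 679, 1795 and 2052 CPM in Intracellular replicates 1, 2 and 3 (1248, 5947 and 18183 counts). The EV values lay within the range of the Intracellular ones. With a mean of 1509 CPM it ranked 41st of the 552 known miRNAs in Intracellular libraries, above 92.6% of them. In EV it ranked 66th.

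miR-218a-5p, a miRNA strongly expressed in motor neurons and encoded within the Slit genes, led the set in EV. It stood at 2032, 1695 and 2264 CPM in EV replicates 1, 2 and 3 (165, 179 and 209 counts) and at 602, 1276 and 1751 CPM in Intracellular replicates 1, 2 and 3 (1108, 4228 and 15517 counts). The highest Intracellular library passed the lowest EV library, so the groups overlapped slightly. Its rank among known miRNAs was 43rd in EV and 47th in Intracellular libraries.

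rno-miR-128-3p, a brain-enriched miRNA that dampens neuronal excitability in mice, varied least of the 3 inside the cells. It stood at 1342, 1004 and 1256 CPM in EV replicates 1, 2 and 3 (109, 106 and 116 counts) and at 901, 1413 and 1224 CPM in Intracellular replicates 1, 2 and 3 (1657, 4680 and 10847 counts). The groups overlapped, with a mean in EV of 1201 ± 176 CPM and inside the cells of 1179 ± 259 CPM (SD, n = 3 each). Within EV, miR-218a-5p did not overlap with the other 2, while miR-128-3p and miR-9a-5p did not differ beyond their spread. Within Intracellular libraries each of the 3 overlapped with its neighbour in the order of levels. Adapter ligation favours some sequences over others, so the order of different miRNAs in a library is approximate.

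The 3 abundant arms came with little of the opposite arm. Pooled over libraries, miR-9a-3p made up 3.49% of the miR-9a counts in EV (12 of 344, exact binomial 95% interval 1.82 to 6.01%) and 1.90% in Intracellular libraries (491 of 25869, 1.74 to 2.07%). The 5p arms of miR-128 identify the precursor, and they had 9 counts for miR-128-1 and 2 counts for miR-128-2 over all Intracellular libraries, with 0 in EV. The 3p arms of miR-218a had 3 and 2 Intracellular counts for the precursors miR-218a-1 and miR-218a-2, and a single EV count, of miR-218a-1-3p. Intervals here and below cover counting error only.

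miR-132 and miR-212, which neurons make from one transcript in response to activity, were much lower. rno-miR-132-3p, the guide arm in neurons, stood at 160.1, 123.1 and 86.6 CPM in EV replicates 1, 2 and 3 (13, 13 and 8 counts) and at 51.1, 96.3 and 102.3 CPM in Intracellular replicates 1, 2 and 3 (94, 319 and 906 counts). The EV libraries reached higher, but the lowest EV library lay among the Intracellular ones. miR-132-5p stood at 86.2, 47.4 and 43.3 CPM in EV replicates 1, 2 and 3 and at 59.3, 71.8 and 75.5 CPM in Intracellular replicates 1, 2 and 3, again with overlap. The 3p arm thus lay above the 5p arm in every EV library, while inside the cells the levels of the 2 arms overlapped.

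The 3p arm took 65.0%, 72.2% and 66.7% of the miR-132 counts in EV replicates 1, 2 and 3, from only 20, 18 and 12 counts of the pair. In Intracellular replicates 1, 2 and 3 its share was 46.3%, 57.3% and 57.5%, so the 5p arm led in replicate 1. The pooled shares were 68.0% in EV (exact binomial 95% interval 53.3 to 80.5%) and 56.5% in Intracellular libraries (54.4 to 58.5%), and these intervals overlapped.

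In miR-212 the 5p arm led. miR-212-5p stood at 0, 28.4 and 10.8 CPM in EV replicates 1, 2 and 3 (0, 3 and 1 counts) and at 16.9, 30.8 and 19.9 CPM in Intracellular replicates 1, 2 and 3 (31, 102 and 176 counts). miR-212-3p, which has the seed of miR-132-3p, had 1, 1 and 0 counts in EV and 4.89, 8.15 and 8.24 CPM in Intracellular replicates 1, 2 and 3. It took 26.1% of the Intracellular counts of miR-212 (109 of 418, exact binomial 95% interval 21.9 to 30.6%). With both arms counted, miR-212 made up 16.5%, 18.8% and 13.7% of the counts of miR-132 and miR-212 in Intracellular replicates 1, 2 and 3. The pooled share was 10.7% in EV (6 of 56, interval 4.03 to 21.9%) and 15.2% in Intracellular libraries (418 of 2753, interval 13.9 to 16.6%), without a difference detectable at the EV depth.

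**Figure D2:**
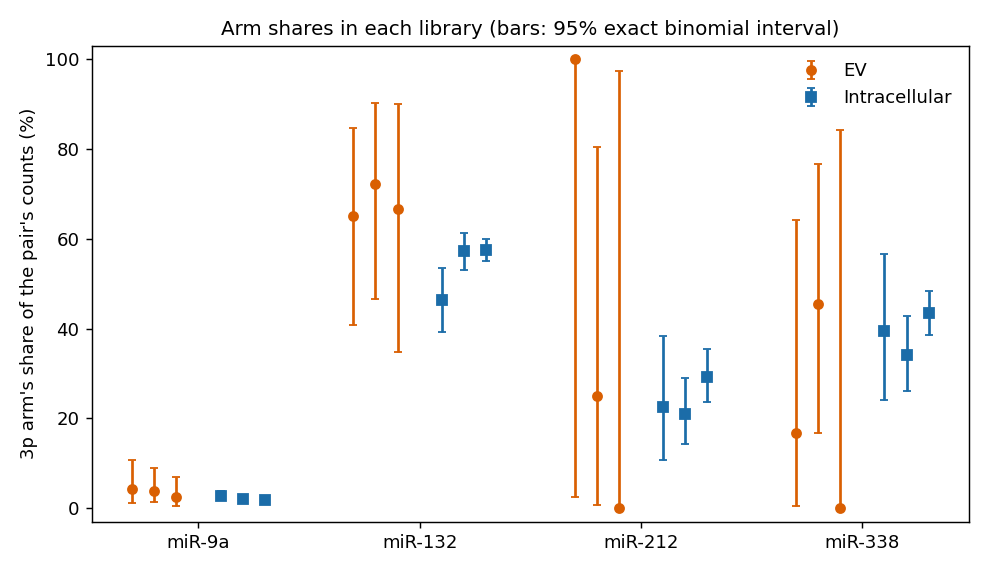
Share of the 3p arm in the counts of both arms (%), per library, for 4 miRNAs, with EV libraries as circles and Intracellular libraries as squares. Bars are exact binomial 95% intervals. The share of miR-9a-3p stays under 5% in all 6 libraries, miR-132 is divided more evenly, and the EV intervals of miR-212 and miR-338 are wide because they rest on 1 to 11 counts.

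rno-miR-138-5p, which restrains dendritic spine growth in rat neurons and occurs in glia, was at trace level inside the cells. It stood at 12.3, 37.9 and 21.7 CPM in EV replicates 1, 2 and 3, from 1, 4 and 2 counts. In Intracellular replicates 1, 2 and 3 it stood at 0.544, 1.81 and 2.14 CPM, from 1, 6 and 19 counts. The groups did not overlap. The pooled level in EV was 13.5 times the Intracellular one (exact 95% interval 4.95 to 32.0). One EV count alone exceeds every Intracellular value, so an EV library with any read of this arm had to lie above them. At the mean Intracellular level 0.419 counts would be present over the 3 EV libraries, against 7 counts seen. miR-138-2-3p, the opposite arm of one of its precursors, had 0 counts in EV and 1 count in Intracellular libraries.

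Among the glial miRNAs, rno-miR-204-5p had the highest mean inside the cells, 25.2 ± 1.09 CPM, against 21.8 ± 8.04 CPM of miR-338-5p (SD, n = 3 each). The 2 overlapped, and miR-338-5p was the higher of them in Intracellular replicates 2 and 3. miR-204, encoded within Trpm3, is known from pigment and secretory epithelia as well as from glia. miR-204-5p had 0, 0 and 43.3 CPM in EV replicates 1, 2 and 3 (0, 0 and 4 counts), against 23.9, 26.0 and 25.6 CPM in Intracellular replicates 1, 2 and 3 (44, 86 and 227 counts). Its EV counts all came from replicate 3. At the Intracellular level 7.03 counts would be present in EV, and the pooled ratio of EV to Intracellular was 0.562 (exact 95% interval 0.152 to 1.45). miR-204-3p had 0 EV counts and 6 Intracellular counts.

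miR-338 is encoded within Aatk, and its 3p arm is the one known from oligodendrocytes. Here the 5p arm had more counts. miR-338-5p stood at 61.6, 56.8 and 21.7 CPM in EV replicates 1, 2 and 3 (5, 6 and 2 counts) and at 12.5, 26.9 and 26.0 CPM in Intracellular replicates 1, 2 and 3 (23, 89 and 230 counts). rno-miR-338-3p stood at 12.3, 47.4 and 0 CPM in EV replicates 1, 2 and 3 (1, 5 and 0 counts) and at 8.16, 13.9 and 19.98 CPM in Intracellular replicates 1, 2 and 3 (15, 46 and 177 counts). The groups overlapped for both arms. The 3p arm took 39.5%, 34.1% and 43.5% of the counts of the pair in Intracellular replicates 1, 2 and 3, and 41.0% pooled (238 of 580, exact binomial 95% interval 37.0 to 45.2%).

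miR-219a, the miRNA most closely tied to oligodendrocytes, was barely present. miR-219a-5p, its guide arm there, had 0 EV counts and 1 Intracellular count, or 0.0714 CPM pooled (exact Poisson 95% interval 0.00181 to 0.398). miR-219a-1-3p, the opposite arm of the precursor miR-219a-1, had more: 0, 2 and 0 EV counts, against 1.63, 3.62 and 3.84 CPM in Intracellular replicates 1, 2 and 3 (3, 12 and 34 counts). These are bulk libraries, in which fewer cells of a type and less RNA per cell cannot be told apart.

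In EV, 6 of the 20 arms had 0 counts, namely both 5p arms of miR-128, miR-138-2-3p, miR-204-3p, miR-218a-2-3p and miR-219a-5p. All 6 were trace inside the cells, where at most 0.161 counts of any of them would be present over all EV reads, so whether the vesicles lack them was not detectable at this depth. A count of 0 over the 3 EV libraries allows up to 10.7 CPM by a limit of 3 counts, and up to 13.2 CPM by the upper bound of the exact Poisson 95% interval. Detection inside the cells rose with depth: 14, 16 and 20 of the arms had counts in Intracellular replicates 1, 2 and 3.

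The levels were set beside miRNAs of cells that fibroblasts are not. All arms of each were taken, opposite arms included, and 57.6% of all 552 known miRNAs were trace. Of 24 arms known from erythroid, epithelial, leukocyte, muscle, liver, endothelial or islet cells, 22 were trace in Intracellular libraries, with a median over arms of 0.521 CPM. The 2 others were miR-126a-3p of endothelium, at 300 ± 139 CPM, and miR-122-5p of liver, at 195 ± 130 CPM (SD, n = 3 each). Both were expressed by the scale above. The limit of 100 CPM is therefore a scale of level and does not by itself mark expression by fibroblasts. miR-9a-5p, miR-218a-5p and miR-128-3p lay above all 24 by mean Intracellular level. Each of the 6 low arms lay above 22 of the 24. miR-338-3p lay above 21, miR-212-3p above 20 and miR-219a-1-3p above 18, while miR-138-5p was exceeded by 9 of the 24. The epithelial markers, miR-200a, miR-200b, miR-200c, miR-141 and miR-429, had 0 EV counts and summed to 1.09 to 2.41 CPM in Intracellular libraries. The sums of the liver list, which is 1 arm, and of the erythroid and muscle lists were higher in EV without overlap. Single miRNAs higher in EV without overlap were common, at 41.8% of all 328 tested. The liver marker miR-122-5p stood at 11158 to 13723 CPM in EV, against 118 to 345 CPM inside the cells. The 4 erythroid arms summed to 151.5 to 221.6 CPM in EV, against 2.26 to 6.53 CPM inside the cells. The 5 muscle arms summed to 49.3 to 151.5 CPM in EV, against 9.24 to 12.8 CPM inside the cells. These sums do not stand for every arm. miR-206-3p of muscle averaged 85.4 CPM in EV and 2.76 CPM inside the cells, while miR-1-3p averaged 7.26 and 7.24 CPM. Both arms of the erythroid miR-144 had 0 EV counts. The sums overlapped for leukocytes (24.6 to 32.5 CPM in EV, against 11.4 to 37.4 CPM inside the cells), endothelium (259.9 to 435.7 CPM in EV, against 141.4 to 390.3 CPM inside the cells) and islets (0 to 9.47 CPM in EV, against 0 to 0.544 CPM inside the cells). By edgeR with TMM scaling, the arms of these lists called higher in EV were miR-206-3p of muscle (4.52 on the log2 scale, adjusted p = 5.49e-06), miR-122-5p (5.09, 0.0129), and the erythroid miR-451-5p (3.71, 0.00121) and miR-486 (5.69, 2.92e-07). miR-206-3p, miR-451-5p and miR-486 lay under the limit of the filter on low counts, 10.3 CPM, in every Intracellular library. They passed it through EV alone, so their higher level there had to follow. The epithelial and islet arms were not tested. Of all 328 tested miRNAs, 25.3% were called higher and 17.1% lower. miR-499-5p, a muscle miRNA outside these lists, was called lower (-1.48, adjusted p = 0.000945).

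Other miRNAs of neural tissue were mostly at trace level as well. Of 19 arms of 13 further miRNAs, opposite arms included, 2 were expressed, 3 were low and 14 were trace. Among all 552 known miRNAs the shares were 25.4%, 17.0% and 57.6%. The level of miR-129-5p in EV was 455 ± 95.5 CPM and inside the cells 392.9 ± 125.99 CPM (SD, n = 3 each). That of miR-7a-5p in EV was 434 ± 36.1 CPM and inside the cells 189 ± 40.3 CPM (SD, n = 3 each). miR-137-3p, a neuronal miRNA, had a mean of 0.113 CPM in Intracellular libraries and no EV counts.

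**Figure D3:**
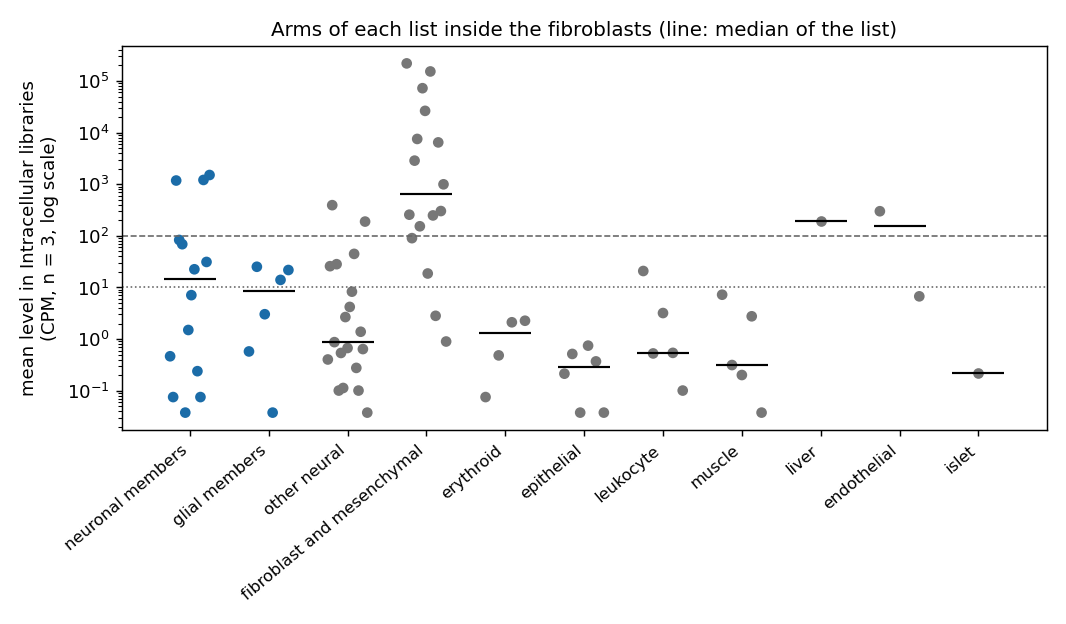
Mean level in the 3 Intracellular libraries (CPM, log scale) of each arm of the neuronal and glial members (blue) and of the lists of other cell types (grey). Each point is 1 arm, the line is the median of the list, and dashed and dotted lines mark 100 and 10 CPM. The 3 leading neuronal members lie above all points of the erythroid, epithelial, leukocyte, muscle, liver, endothelial and islet lists, and below the leading fibroblast and mesenchymal miRNAs.

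EV and Intracellular libraries were then compared by the quasi-likelihood test of edgeR with TMM scaling over all 328 miRNAs that passed a filter on low counts. Of the 20 arms 11 passed it, 8 neuronal and 3 glial, and 9 were not tested. miR-138-5p passed through its EV libraries alone, so its higher level there had to follow. Of the 11, 1 was called higher in EV (adjusted p under 0.05), 2 were called lower and 8 were not called. Over all tested miRNAs, 25.3% were called higher and 17.1% lower. The median log2 fold change was -0.15 over the 11 arms and -0.07 over all 328. The calls are therefore not read as a property of these arms.

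The higher call was miR-138-5p, at 3.28 on the log2 scale (SE 0.77, adjusted p = 0.00238 by edgeR), and higher in 3 of 3 EV libraries. It rests on 7 EV counts, and without EV replicate 2, which held 4 of them, it missed the threshold (log2 fold change 2.74, adjusted p = 0.0502, against 7.53e-05 to 0.0199 under the other alternatives). These alternatives reuse the same EV counts, so their p-values are no independent support for the call. Its CPM did not overlap between the groups, which was true, with EV higher, of 41.8% of all tested miRNAs. With total-count scaling it was again the 1 higher call among the 11 arms, where 32.6% of all tested miRNAs were called higher. Of the liver, erythroid and muscle arms called higher above, all but miR-122-5p likewise passed the filter through EV alone. The part of these arms in the level of miR-138-5p was not tested. None of the 11 arms lay lower in EV without overlap, against 3.66% of all tested miRNAs.

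The lower calls were miR-9a-5p, at -0.89 on the log2 scale (SE 0.23, adjusted p = 0.00423 by edgeR), and miR-128-3p, at -0.62 (SE 0.19, adjusted p = 0.0153). Both calls also held with RLE scaling and with DESeq2, but not with total counts. With that scaling miR-9a-5p was at -0.35 (adjusted p = 0.529) and miR-128-3p turned to 0.02 (adjusted p = 0.956), and 1.22% of all tested miRNAs were called lower. Total counts moved the median of all tested miRNAs by 0.61, to 0.55. Both arms lay below that median under either scaling. miR-128-3p also missed the threshold without EV replicate 1 (adjusted p = 0.0512) and without EV replicate 2 (0.0964). Without Intracellular replicate 1 miR-9a-5p was at -1.05 (adjusted p = 6.49e-06).

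miR-218a-5p, the third abundant arm, was not called by edgeR (log2 fold change 0.16, SE 0.22, adjusted p = 0.597). With total counts it was at 0.72 (adjusted p = 0.102). Among the activity-regulated pair, miR-132-5p was at -0.91 (SE 0.38, adjusted p = 0.0576), miR-132-3p at -0.06 (SE 0.30, adjusted p = 0.889) and miR-212-5p at -1.26 (SE 0.77, adjusted p = 0.205). miR-9a-3p was at -0.15 (SE 0.46, adjusted p = 0.805). With total counts the values of miR-132-3p (0.55) and miR-9a-3p (0.45) changed sign.

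None of the 3 tested glial arms was called by edgeR, and none had an unadjusted p under 0.05. DESeq2 and limma called 0 of the 3 as well. miR-204-5p was at -1.44 (SE 0.84, edgeR adjusted p = 0.182), miR-338-5p at 0.48 (SE 0.51, adjusted p = 0.473) and miR-338-3p at -0.03 (SE 0.76, adjusted p = 0.981). Without EV replicate 3, the one EV library with reads of miR-204-5p, that arm was called lower (adjusted p = 0.0260). Of the other neural miRNAs, 0 of 6 tested arms were called by edgeR with TMM scaling, with 2 at an unadjusted p under 0.05, and 0 by DESeq2. Of those 2, miR-326-3p passed the filter through its EV libraries alone, so its higher level there had to follow. With total counts 2 of the 6 were called higher, where 32.6% of all tested miRNAs were. With pseudocounts of 1 and 0.1 limma called 2 and 1 of the 6 higher, and 106 and 101 of all 328. With TMM scaling edgeR called 2 of the 6 higher without Intracellular replicate 1, and 91 of all 328.

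**Figure D4:**
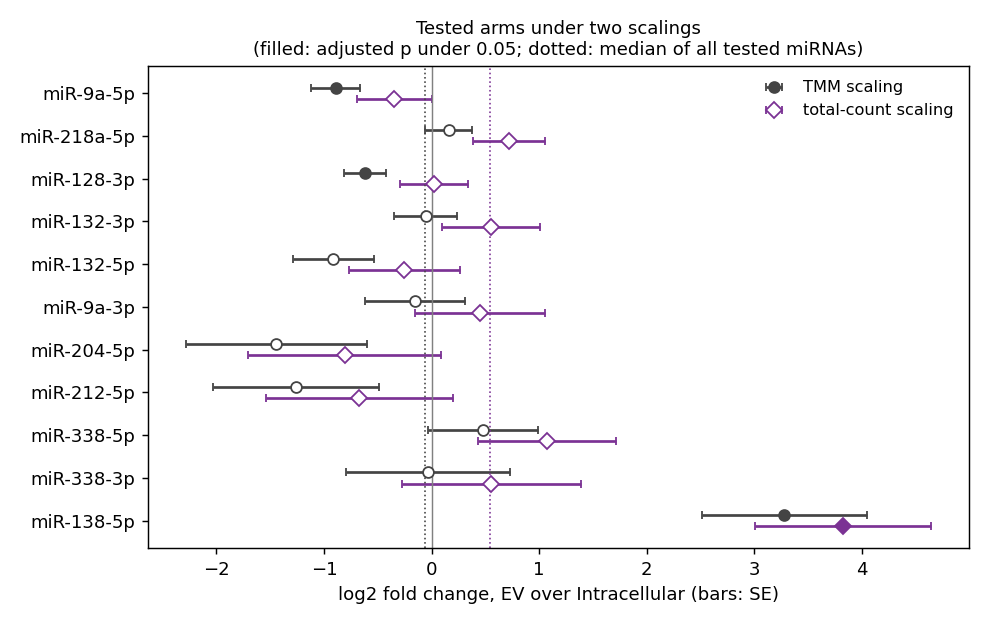
Log2 fold change of EV over Intracellular for the 11 tested arms, with SE as bars, under TMM scaling (circles) and total-count scaling (diamonds). Filled symbols have an adjusted p under 0.05, and dotted lines mark the median of all 328 tested miRNAs under each scaling. miR-138-5p is filled under both, miR-9a-5p and miR-128-3p under TMM alone.

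The 3 arms with at least 10 counts in every library were also set beside the 157 other known miRNAs with as many, by Pearson's r of log2(CPM + 1) over the 6 libraries. These r describe libraries that share depth and group, and carry no test. Intracellular replicate 1, which held the lowest Intracellular CPM of most known miRNAs, is among them, so a high r does not show shared regulation. Closest to miR-9a-5p were miR-101a-3p (r = 0.975), miR-30d-5p (0.973) and miR-409a-5p (0.971). Closest to miR-218a-5p were miR-146b-5p (0.972), miR-127-5p (0.970) and miR-652-3p (0.966). Closest to miR-128-3p were miR-598-3p (0.989), miR-107-3p (0.948) and miR-27b-3p (0.910). miR-101a-3p, for example, averaged 415 ± 47.4 CPM in the vesicles and 512 ± 238 CPM inside the cells (SD, n = 3 each).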

How the data were processed

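The authors deposited raw counts, 1 row to a mature miRNA. The deposited TPM table equals those counts scaled to 1000000 per library, with a largest difference of 4.78e-05. The submitters' processing notes name cutadapt and the genome build Rnor_6.0. Aligner, counter and miRNA database were not given in the sources used here. Per the labels' protocols, adapters were ligated and cDNA was amplified by PCR, with no molecular identifiers named. Each column name gives a sample's group and number.

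Counts were tested over the whole table with edgeR 4.0.16 (R 4.3.3): TMM, filterByExpr (minimum count 10, minimum total 15, which came to 10.3 CPM in 3 libraries), robust quasi-likelihood, 2-sided, EV minus Intracellular, Benjamini-Hochberg adjusted p under 0.05. Standard errors come from the F statistic. The procedure was tested on simulated data. Alternatives were RLE and total-count scaling, other filters, DESeq2 1.42.0, limma 3.58.1 on log2(TPM + 1) and log2(TPM + 0.1), a replicate block, each library left out with the same miRNAs tested, and other level limits. Fold changes of limma are on the log2(TPM + pseudocount) scale. Members, lists, limits and tests were chosen with earlier results of these data known. All arms of the members are given, and of the other lists the counts and the highest arms. miR-137-3p, miR-101a-3p, miR-206-3p, miR-1-3p, miR-326-3p, miR-499-5p, the erythroid miR-451-5p, miR-486 and miR-144, and the epithelial markers were named after their values were seen.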

Additional observations from a re-analysis of the deposited data

How the results depend on the processing

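Of the fold changes of the 11 tested arms under up to 14 alternatives, 17 changed sign. Of those that kept their sign, 6 missed the threshold and 2 passed it, while the others kept their side of the threshold. miR-128-3p changed sign and also missed the threshold with total counts and with limma at both pseudocounts. Among all tested miRNAs 83 were called higher and 56 lower. Without a filter on low counts 197 were higher, and 4, 4 and 2 were lower with total counts and with limma at pseudocounts of 1 and 0.1, under which 0 neuronal and glial arms were lower. Higher calls were 59.7% of all calls with TMM and 96.4% with total counts. With single libraries left out, 63 to 91 miRNAs were higher and 18 to 58 lower, and 0 to 1 neuronal and glial arms were higher and 1 to 3 lower (3 without EV replicate 3). The 18 and 26 lower calls came without EV replicates 1 and 2, and 36 without Intracellular replicate 3. With at least 5 counts in 3 or more libraries, 0 arms were higher, since miR-138-5p was then not tested.

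miR-9a-5p missed the threshold with limma at both pseudocounts (-0.20 each). With total counts and limma at pseudocounts of 1 and 0.1, sign changes were to 0.0241, 0.0398 and 0.0399 for miR-128-3p, 0.55, 0.58 and 0.59 for miR-132-3p and 0.45, 0.48 and 0.50 for miR-9a-3p. With total counts miR-338-3p turned to 0.55. With single libraries left out, miR-132-3p ranged from -0.22 to 0.0930, miR-218a-5p from -0.00253 to 0.45 and miR-338-3p from -1.92 to 0.49. The cause was not tested. miR-132-5p was called lower without a filter (-1.05, adjusted p = 0.0498). Leaving out single libraries gave 3 expressed, 6 to 7 low and 10 to 11 trace arms. With limits of 50 and 5 CPM, 5 arms were expressed, and with 200 and 20 CPM, 3 were low.

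Whether replicate numbers pair the samples is not given by the labels. Deviations from the group means correlated by 0.0243, 0.0208 and 0.0160 between EV and Intracellular replicates 1, 2 and 3, and no EV library correlated best with its own number. Counting error at the EV depth can hide a pairing, so these values cannot decide the question. With a replicate block 87 miRNAs were higher and 46 lower, 1 and 2 of them neuronal and glial arms, 1 of the 6 other neural arms was higher, and miR-338-3p turned to 0.0124. At 9.47 to 12.3 CPM per count, EV depth limits all arms but the 3 abundant ones.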
